A study of Mus musculus with 4 samples.

Results

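The Hox cluster genes were the 38 protein-coding Hox genes found by symbol among the 32285 genes of the count matrices, with 10 members in HoxA on chromosome 6, 10 in HoxB on chromosome 11, 9 in HoxC on chromosome 15 and 9 in HoxD on chromosome 2. They were picked by name, with earlier results of these data known. Expression was measured by droplet single-cell RNA-seq of the 3′ ends of transcripts in GFP-positive cells sorted from the pharyngeal region and heart of mouse embryos at embryonic day 9.5. The 2 genotypes were the conditional heterozygote (cHet, Tbx1Cre/+; Kmt2d F/+; GFP F/+) and the conditional knockout (cKO, Tbx1Cre/+; Kmt2d F/F; GFP F/+), with 2 libraries of each. Cre was knocked into the Tbx1 locus, so all animals carried a single working copy of Tbx1, recombination and the GFP label followed Tbx1-expressing cells and their descendants, and the controls had themselves lost 1 copy of Kmt2d. The labels give the strain as outbred SwissWebster, while by the study's methods its mice were kept on a mixture of C57BL/6 and Swiss Webster. Each library pooled 4 embryos in replicate 1 (Rep1) or 3 embryos in replicate 2 (Rep2). The study's supplement gives the range of somite counts, a measure of stage, for each pool. In Rep1 the range of the cKO pool lay within that of the cHet pool. In Rep2 every cKO embryo had at least as many somites as the most advanced cHet embryo. The part of stage in differences between genotypes was not tested. Rep1 and Rep2 were made with different versions of the droplet kit, so that replicate, kit and pool of embryos cannot be told apart.

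Hox genes encode homeodomain transcription factors that lie in clusters, where the order of the genes along the chromosome follows the order in which they are expressed along the head-to-tail axis. Genes at the same place in different clusters form a paralog group, and low-numbered groups are expressed farther forward than high-numbered groups. In the hindbrain, pharyngeal arches and second heart field the low-numbered groups give cells their axial identity, under the influence of retinoic acid. Kmt2d encodes a methyltransferase of histone H3 lysine 4 that acts mainly at enhancers, while Trithorax and Polycomb proteins maintain the active and silent states of the Hox clusters. The comparison of cKO with cHet asks whether the axial code of Tbx1-lineage cells differed when the remaining copy of Kmt2d was also removed.

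After filtering, 5869 to 11938 cells per library remained, with a median of 17240.5 to 22972 UMIs (unique molecular identifiers, each a captured transcript molecule) per cell and 16977 to 40774 Hox UMIs per library. The cHet Rep1 library stood apart: it held 37093 barcodes and its kept cells had 60.04% of its UMIs, against 86.1% to 91.6% in the other libraries. The study's supplement lists far fewer cells for this library, while its cell totals for the other libraries equal their deposited barcodes. By that supplement the study also removed ambient RNA, that is RNA from outside the cells, with SoupX. That step was not applied here. The cHet and cKO libraries shared 12 kept barcodes in Rep1 and 41 in Rep2. Kmt2d was at 17.4 CPM (UMIs per 1000000 UMIs of the library) in cHet and 15.2 in cKO of Rep1, and at 23.9 in cHet and 21.0 in cKO of Rep2, a log2 fold change of -0.16 (SE 0.0748, edgeR adjusted p = 0.956). The exons removed by Cre are not given in the sources used here and 3′ tags need not lie in them, so these values do not check the deletion. The study reported Kmt2d to be depleted in cKO by RT-qPCR at the same stage, against Tbx1Cre/+ embryos. In its single-cell data it saw no noteworthy change of Kmt2d between cHet and cKO. Cells were grouped into 20 classes without using any Hox gene. Of these, 14 were named "-like" from lists of marker genes, and 6 that did not pass the rule for a name are called by their number and 2 leading genes. The sensory neurons-like class passed on 10 of 10 sensory neuron markers and also held 4 of 6 neural tube markers that passed the same cut.

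Hox expression in these cells was that of low-numbered paralog groups. HoxB gave 64.3% of all Hox UMIs, HoxA 26.7%, HoxD 6.94% and HoxC 2.06%. Counted over all cells, anterior members (groups 1 to 3) made up 73.4% to 82.9% of the Hox UMIs of a library, central members (groups 4 to 8) 17.04% to 25.8%, and posterior members (groups 9 to 13) 0.0196% to 0.791%. At least 1 UMI was found for 33 members. Hoxa13, Hoxb13, Hoxc10, Hoxc12 and Hoxd12 had 0 UMIs in 33448 cells, which allows a share of cells with a UMI of up to 0.00897% and covers counting error only. The 10 members with most UMIs were Hoxb2 (37570), Hoxa2 (19829), Hoxb3 (13005), Hoxb4 (11221), Hoxb1 (6217), Hoxa3 (5959), Hoxd3 (4857), Hoxb5 (3575), Hoxa5 (2827) and Hoxc4 (1725). A UMI counts a molecule and not its length, so these are shares of captured molecules.

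Classes were compared by CPM, the UMIs of a member per 1000000 UMIs of that class in a library. The summed Hox level was highest in 3 classes: sensory neurons-like cells, at 617 CPM ± 112 (SD over the 4 libraries), cluster 3 (Arg1, Cacna2d3), at 507.5 CPM ± 141, and surface ectoderm-like cells, at 473 CPM ± 145. Second heart field-like cells, the progenitors that add to the poles of the heart tube, followed at 306 CPM ± 51.1 in the posterior and 267.5 CPM ± 55.2 in the anterior class. At the other end were endothelium-like cells, at 18.1 CPM ± 6.29, and cluster 0 (Pcdh9, Galntl6), at 11.7 CPM ± 3.28. Cluster 16 (Etv2, Tal1), which also passed on all 10 endothelial markers, was at 89.7 CPM ± 10.2. The ranges of the 3 highest classes overlapped (479 to 734, 364 to 655 and 336 to 645 CPM), so their order was within the spread between libraries. Clusters were formed from the same cells, so levels between classes are given as a description, without a test. In sums over the cells of a class, fewer expressing cells and less RNA per expressing cell cannot be told apart. A Hoxb2 UMI was found in 4.54% to 5.97% of cluster 0 cells and in 80.2% to 89.8% of cluster 3 cells, over the 4 libraries. A lower level in each cell also lowers such a share, so it does not separate them fully.

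**Figure D1:**
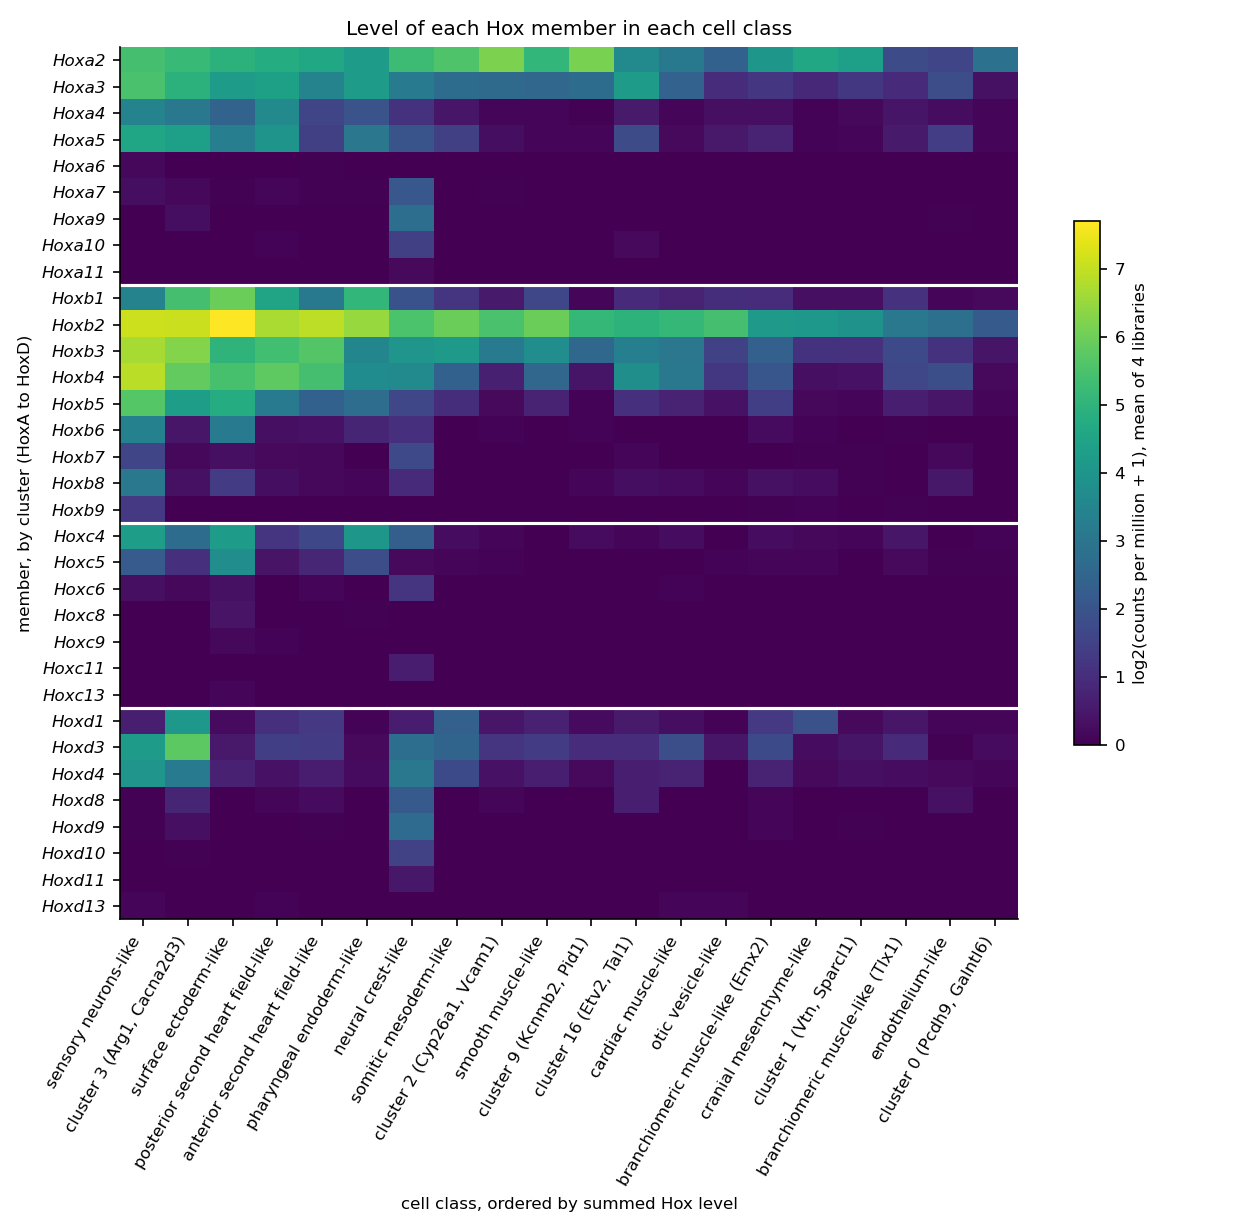
Level of each Hox member with at least 1 UMI in each of the 20 cell classes, as log2(CPM + 1) averaged over the 4 libraries, with members ordered within HoxA to HoxD and classes ordered by summed Hox level. Signal is concentrated in paralog groups 1 to 5 and in the classes at the left, and the isolated signal of groups 7 to 10 in neural crest-like cells came mostly from 1 library, cKO Rep1.

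The highest paralog group reached differed between classes. Counting a member as detected at 5 CPM or more in all 4 libraries, surface ectoderm-like and sensory neurons-like cells reached group 6 with 11 and 10 members, cluster 3 and posterior second heart field-like cells reached group 5 with 12 and 9 members, and anterior second heart field-like and pharyngeal endoderm-like cells reached group 4 with 6 and 5 members. Cluster 2 (Cyp26a1, Vcam1), led by the retinoic acid-degrading enzyme Cyp26a1, and somitic mesoderm-like cells stopped at group 3. Cluster 9 (Kcnmb2, Pid1), cluster 1 (Vtn, Sparcl1) and cranial mesenchyme-like cells stopped at group 2, while no member was detected in cluster 0 or in endothelium-like cells. Cluster 16, the other class with endothelial markers, reached group 4 with 5 members. Central members made up 38.4% to 45.2% of the Hox UMIs in sensory neurons-like cells and 0.109% to 2.02% in cluster 9, with no overlap between libraries of these classes. In cluster 3 the central share was 19.95% to 26.1%, and in posterior second heart field-like cells 26.2% to 34.8%.

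**Figure D2:**
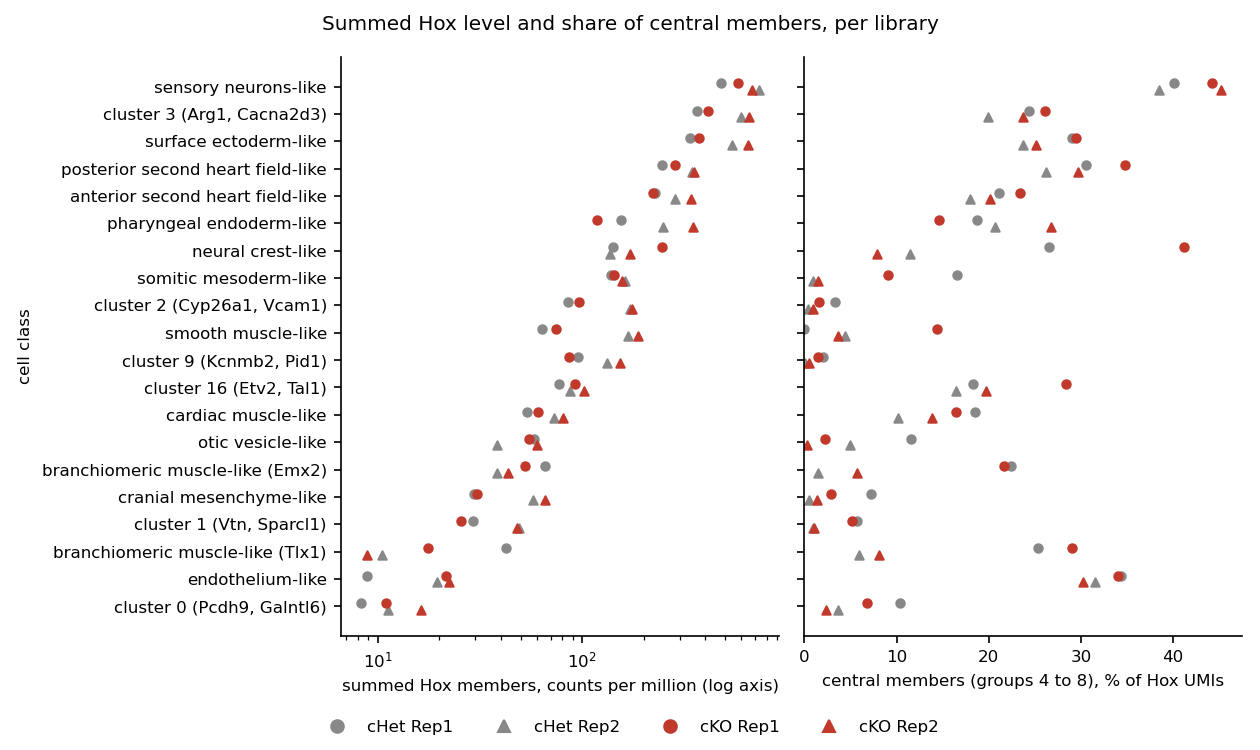
Left, summed CPM of the 38 Hox members (log axis) and right, percent of Hox UMIs from central members (groups 4 to 8), for each class and library, with grey for cHet, red for cKO, circles for Rep1 and triangles for Rep2. In sensory neurons-like cells all 4 libraries lie between 479 and 734 CPM and between 38.4% and 45.2%, and in several Hox-poor classes the Rep1 circles have a larger central share than the Rep2 triangles.

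Hoxb1, a marker of a hindbrain segment and of second heart field progenitors, and Hoxb2, which acts in the same hindbrain region, were highest in surface ectoderm-like cells. Hoxb2 there was at 131 CPM in cHet and 150.5 CPM in cKO of Rep1, and at 244 CPM in cHet and 302.5 CPM in cKO of Rep2. The Rep2 libraries were higher than the Rep1 libraries, and the range of the 4 overlapped that of sensory neurons-like cells, cluster 3, anterior second heart field-like cells (92.1 to 158.9 CPM) and, barely, pharyngeal endoderm-like cells (53.1 to 132.7 CPM) but not that of posterior second heart field-like cells (78.3 to 125.4 CPM). Hoxb1 in surface ectoderm-like cells was at 49.5 and 57.9 CPM in cHet and cKO of Rep1 and at 74.9 and 65.0 CPM in cHet and cKO of Rep2. In cluster 3 Hoxb1 was at 34.0 and 34.8 CPM in Rep1 and 53.8 and 46.8 CPM in Rep2, in the same order. Hoxb1 thus overlapped between these classes, while in posterior second heart field-like cells (17.2 to 26.1 CPM) it lay above its level in sensory neurons-like cells (3.597 to 13.5 CPM).

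Hoxa2, which gives the second pharyngeal arch its identity, had another order of classes from Hoxb2. In cluster 2 its mean was 71.2 CPM ± 27.3 and in cluster 9 it was 69.9 CPM ± 21.3 (SD, n = 4 libraries), ahead of somitic mesoderm-like cells at 46.6 CPM ± 11.4. These 3 classes overlapped in turn. Central members were nearly absent from clusters 2 and 9, where they were 0.421% to 3.35% and 0.109% to 2.02% of Hox UMIs. In surface ectoderm-like cells, where Hoxb2 was highest, Hoxa2 was at 20.4 and 15.2 CPM in Rep1 and 39.2 and 44.5 CPM in Rep2.

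The group 3 genes act in the third pharyngeal arch and in the caudal hindbrain. Hoxb3 was highest in sensory neurons-like cells, at 79.6 and 88.4 CPM in cHet and cKO of Rep1 and at 125.8 and 120 CPM in Rep2. Hoxa3, which is required for the thymus and parathyroid, was highest in the same class, at 28.3 and 30.6 CPM in Rep1 and 65.9 and 52.7 CPM in Rep2. In both cases Rep2 was higher than Rep1 in both genotypes, and cluster 3 came next with an overlapping range. Hoxd3 differed: its mean was highest in cluster 3, at 25.9 and 29.8 CPM in Rep1 and 79.0 and 79.2 CPM in Rep2. Hoxd3 had a mean of 17.6 CPM ± 17.8 in sensory neurons-like cells and of 5.92 CPM or less in every other class. In Rep1 the sensory neurons-like cells were the higher of both classes, and their ranges overlapped. In cluster 3 its libraries separated by replicate and not by genotype.

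The groups 4 and 5 mark the caudal hindbrain, neck and forelimb levels. Hoxb4 was highest in sensory neurons-like cells, at 79.8 and 90.8 CPM in Rep1 and 146 and 162 CPM in Rep2, without overlap with cluster 3 (49.3 to 66.7 CPM). Hoxb5 had its highest mean there as well, at 26.9 and 31.8 CPM in Rep1 and 70.0 and 72.7 CPM in Rep2, and overlapped with surface ectoderm-like cells (16.8 to 41.8 CPM). Hoxa5, which acts in foregut and respiratory mesenchyme, was at 15.3 and 14.0 CPM in Rep1 and 26.4 and 33.9 CPM in Rep2 in sensory neurons-like cells and at similar levels in cluster 3. Hoxc4 was highest in 3 classes, with means of 18.6 CPM ± 4.28 in sensory neurons-like, 18.3 CPM ± 4.18 in surface ectoderm-like and 15.9 CPM ± 14.7 in pharyngeal endoderm-like cells, against 5.58 CPM ± 2.82 in cluster 3 and 0 UMIs in otic vesicle-like cells. In pharyngeal endoderm-like cells Hoxc4 was at 7.14 and 1.85 CPM in cHet and cKO of Rep1 and at 19.9 and 34.8 CPM in Rep2, so that here the replicates did not overlap and the genotypes did.

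When all cells of a library were summed, no member differed between cKO and cHet past an adjusted p of 0.05. Of the 38 members, 19 passed the filter on low counts and 0 were called by edgeR's quasi-likelihood test with replicate as a block, as were 0% of the 20126 genes tested. At an unadjusted p under 0.05, 5 of the 19 members were higher in cKO and none lower, against 3.07% of all genes that were higher at that threshold. The 5 were Hoxc5, Hoxd8, Hoxb6, Hoxd4 and Hoxc4, with log2 fold changes of 0.72 (SE 0.188), 1.38 (SE 0.398), 0.73 (SE 0.217), 0.39 (SE 0.154) and 0.48 (SE 0.198) and edgeR adjusted p of 0.687, 0.756, 0.773, 0.882 and 0.883. They are members of low level, with 108 (Hoxd8) to 1725 (Hoxc4) UMIs in all cells. Hoxd8 had 9 and 44 UMIs in cHet and cKO of Rep1 and 19 and 36 in Rep2. Part of those of cKO Rep1 lay in neural crest-like cells, where no other library had a Hoxd8 UMI. With DESeq2 0 members passed that threshold, and without the replicate block 1. The shares of all genes in those fits are not given. When a library was left out, Hoxc4 was at 0.19 to 0.71. Of the more abundant members, several lay near 0 on the log2 scale, with Hoxb2 at -0.04 (SE 0.0987), Hoxa2 at 0.13 (SE 0.0895), Hoxb3 at -0.02 (SE 0.101), Hoxb4 at -0.02 (SE 0.131) and Hoxd3 at -0.05 (SE 0.109). Hoxb1, the fifth by UMIs, was at -0.32 (SE 0.153, unadjusted p = 0.0773, edgeR adjusted p = 0.956) and was lower in cKO in both replicates, by 0.68 in Rep1 and 0.04 in Rep2, although the genotypes overlapped. When a library was left out, Hoxb1 was at -0.622 to -0.0592. Hoxb2 was at 42.5 CPM in cHet and 34.9 CPM in cKO of Rep1 and at 61.5 CPM in cHet and 68.2 CPM in cKO of Rep2, so the direction differed between replicates. A sum over all cells also moves with the shares of the classes, which were not equal between libraries.

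Within classes, 147 pairs of a member and a class passed the filter and 3 were called, all higher in cKO and all in cluster 3, against 0.534% of the 249709 pairs of any gene and a class. Of the 147 pairs, 64 were higher in cKO in both replicates and 14 were lower in both, against 24.2% and 27% of all pairs. At an unadjusted p under 0.05, 25 pairs were higher and 4 lower in cKO, against 3.31% and 3.14% of all pairs. The number of pairs at that threshold was 29 in this fit, 6 without the replicate block and 3 with DESeq2. Whether the 6 and the 3 were among the 29 was not examined. The filter keeps only members with enough counts in at least some libraries, and 613 further pairs fell below it.

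**Figure D3:**
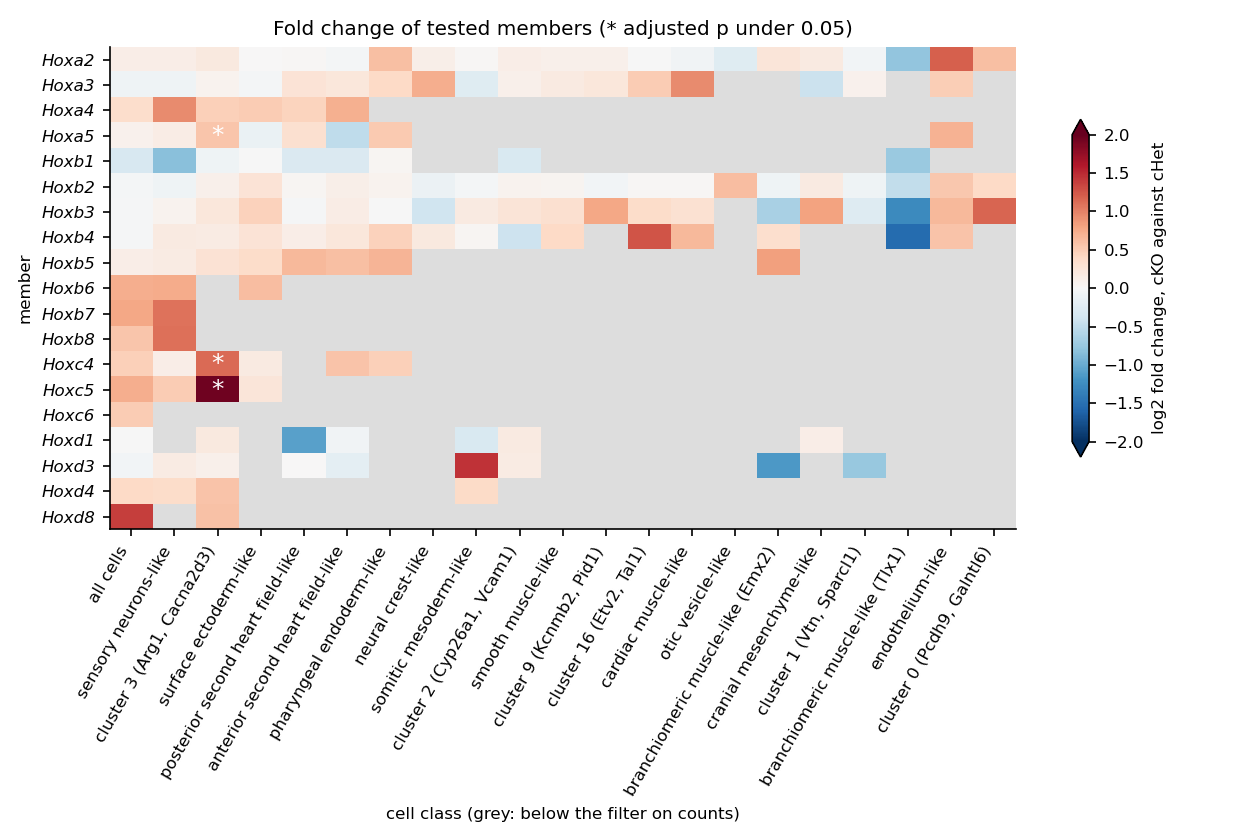
Log2 fold change of cKO against cHet (colour, red for higher in cKO) for every member that passed the filter in all cells or in a class, with grey where it did not pass and an asterisk at an edgeR adjusted p under 0.05. The 3 asterisks are Hoxa5 (0.55), Hoxc4 (1.13) and Hoxc5 (1.94) in cluster 3.

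Cluster 3 is a class led by Arg1, Cacna2d3, Scn3a, Grem1 and Rdh10, the last an enzyme of retinoic acid synthesis. It held 645 cHet and 536 cKO cells of Rep1 and 1066 cHet and 1202 cKO cells of Rep2, and carried 2 of the 8 posterior second heart field markers, Osr1 and Aldh1a2, which is too few for that name. Hoxd3 was also among its leading genes, although no Hox gene was used to form it. Hoxc4, Hoxc5 and Hoxa5, which are expressed at neck and forelimb levels, rose here in cKO.

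Hoxc4 was counted with 36 UMIs in cHet and 73 in cKO of Rep1 and with 90 in cHet and 181 in cKO of Rep2. These were 2.75 and 5.88 CPM in Rep1 and 4.31 and 9.35 CPM in Rep2. Both cKO libraries lay above both cHet libraries, with a log2 difference of 1.10 in Rep1 and 1.12 in Rep2. The fitted log2 fold change was 1.13 (SE 0.202, edgeR adjusted p = 2.31e-05). Hoxc4 UMIs were found in 24 of 645 cHet cells and 39 of 536 cKO cells of Rep1, and in 51 of 1066 cHet cells and 91 of 1202 cKO cells of Rep2, that is in 3.72% (95% Wilson interval 2.51 to 5.48) and 7.28% (5.37 to 9.79) in Rep1 and 4.78% (3.66 to 6.24) and 7.57% (6.21 to 9.21) in Rep2. With each cell thinned to 5000 UMIs the shares were 1.71% and 2.05% in Rep1 and 1.31% and 3.33% in Rep2. In cluster 0, which was nearly without Hox, Hoxc4 was found in 0% to 0.285% of cells, and in endothelium-like cells in none. Intervals cover counting error only. Median depth in cluster 3 was 18002 and 20522 UMIs per cell in cHet and cKO of Rep1 and 19198 and 15466 in Rep2.

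Hoxc5, the neighbour of Hoxc4, was counted with 4 and 22 UMIs in cHet and cKO of Rep1 and with 11 and 31 UMIs in Rep2. Its level was 0.306 and 1.77 CPM in Rep1 and 0.527 and 1.60 CPM in Rep2, again with both cKO libraries above both cHet libraries. The fitted log2 fold change was 1.94 (SE 0.440, edgeR adjusted p = 0.00271), from counts this low. A Hoxc5 UMI was found in 4 cHet and 19 cKO cells of Rep1 and in 7 cHet and 25 cKO cells of Rep2. Of these, 3, 8, 4 and 19 cells, in the order cHet and cKO of Rep1 and cHet and cKO of Rep2, also held a Hoxc4 UMI. Hoxc5 was thus found in 7.84% to 20.9% of Hoxc4-positive cells and in 0.161% to 2.21% of Hoxc4-negative cells of a library.

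Hoxc4 lies at chr15:103018934-103036852 and Hoxc5 at chr15:102967443-103017429, both on the plus strand of GRCm38. In GENCODE release vM21 they share no exon base, while Hoxc5 shares 166 exon bases with Hoxc10 (0 UMIs) and Hoxd3 shares 388 with Hoxd4. Neither overlap lies within the last 500 bases before the outermost annotated end of a gene, near which 3′ tags mostly lie. Transcripts that end elsewhere and reads in introns were not checked. Hoxa4, Hoxa5 and Hoxa6 lie within the span of Hoxa3 on the same strand. The release used for counting is not given in the sources used here, and in a release with a transcript across Hoxc4 and Hoxc5 reads could be assigned to either gene.

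Hoxa5 was counted with 149 and 169 UMIs in cHet and cKO of Rep1 and with 415 and 612 UMIs in Rep2. Its level was 11.4 and 13.6 CPM in Rep1 and 19.9 and 31.6 CPM in Rep2. The cKO library was higher in each replicate, by 0.26 in Rep1 and 0.67 in Rep2 on the log2 scale, but the genotypes overlapped because cHet Rep2 lay above cKO Rep1. The fitted log2 fold change was 0.55 (SE 0.110, edgeR adjusted p = 0.000295). Without cKO Rep2 it was 0.04 and without cKO Rep1 0.89, in fits of 3 libraries that could not hold the replicate block.

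With the 3 called included, 13 of the 15 members tested in cluster 3 were higher in cKO in both replicates, as were 21.1% of the 14499 genes tested there. At an unadjusted p under 0.05, 9 of the 15 were higher in cKO and none lower, against 3.56% of all genes. At an adjusted p under 0.05, 3 of 15 were higher, against 0.531% of all genes. The median log2 fold change was 0.22 over the 15 members and 0.0036 over all genes. Hoxd4 was at 0.58 (SE 0.167, edgeR adjusted p = 0.0579) and Hoxb3 at 0.22 (SE 0.0687, edgeR adjusted p = 0.0942), both short of the threshold. The 2 members that were not higher in both replicates were Hoxb1, at -0.08 (SE 0.0813), and Hoxa3, at 0.06 (SE 0.0915).

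**Figure D4:**
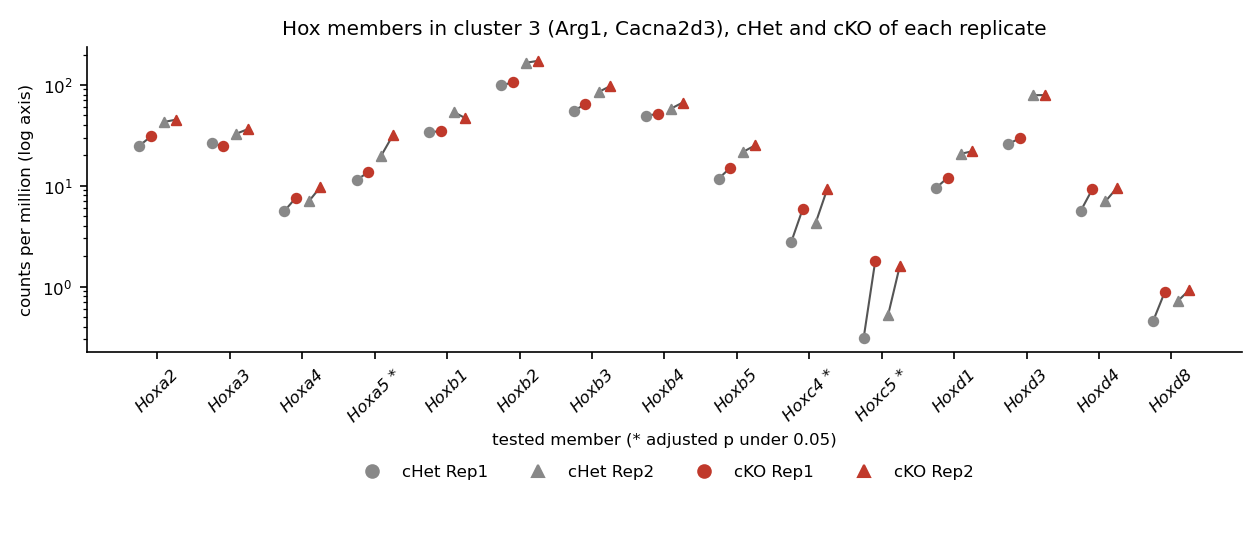
CPM (log axis) of the 15 Hox members tested in cluster 3, with grey for cHet, red for cKO, circles for Rep1, triangles for Rep2 and a line joining the genotypes of each replicate; asterisks mark an edgeR adjusted p under 0.05. The lines of Hoxc4 and Hoxc5 rise steeply in both replicates, from 2.75 to 5.88 and 4.31 to 9.35 CPM for Hoxc4, while that of Hoxb1 falls from 53.8 to 46.8 CPM in Rep2.

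Markers of the classes with more Hoxc4 than cluster 3 were summed in cluster 3. The 10 surface ectoderm markers together were at 33.0 and 27.4 CPM in cHet and cKO of Rep1 and at 27.7 and 27.0 CPM in Rep2, with Krt5 at 0 UMIs, and so were lower in cKO in both replicates. The 10 pharyngeal endoderm markers were at 16.7 and 13.3 CPM in Rep1 and 21.8 and 18.8 CPM in Rep2, also lower in cKO, with Foxa1, Nkx2-1 and Foxe1 at 0 UMIs. The 10 sensory neuron markers were at 31.9 and 31.3 CPM in Rep1 and 49.6 and 52.5 CPM in Rep2. Lists whose sums were higher in cKO in both replicates were those of branchiomeric muscle (67.5 and 70.9 CPM, then 108 and 151 CPM), neural crest (50.8 and 56.8 CPM, then 85.7 and 92.3 CPM) and cranial mesenchyme (1057 and 1136 CPM, then 1296 and 1321 CPM), with 3 of 7, 4 of 7 and 5 of 9 markers higher in both replicates. Most of the branchiomeric muscle sum was Tcf21 (54.9 and 58.7 CPM, then 92.0 and 131 CPM), itself a marker that passed in cluster 3, while Myf5 was at 1.24 CPM or less. Most of the neural crest sum was Ets1 (44.2 and 49.7 CPM, then 80.8 and 86.2 CPM), while Sox10 was at 0.61 CPM or less. The smooth muscle list was at 31.2 and 21.3 CPM in Rep1 and 42.4 and 28.2 CPM in Rep2, lower in cKO in both, with 4 of 6 markers lower in both replicates. The sums of the endothelium, cardiac muscle, multilineage progenitor, otic vesicle and neural tube lists were also lower in cKO in both replicates. The part of these markers in the Hox result was not tested.

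The 3 calls rested on the choice of test. They held with other scalings, and were lost without the replicate block, with DESeq2, without the filter on low counts, and with cells thinned to 5000 UMIs. In that order the log2 fold change was 1.12, 1.13, 1.13 and 1.07 for Hoxc4 and 0.53, 0.50, 0.55 and 0.50 for Hoxa5. For Hoxc5 it was 2.03, 2.05 and 1.94, and with thinned cells Hoxc5 had no fitted value. They were also lost when any library was left out, but those fits had to drop the replicate block as well, so the part of the single library cannot be told apart from that of the block. Without the filter 9 other pairs were called, 7 higher and 2 lower in cKO, as were 0.766% of the 411202 pairs then tested. The log2 fold change of Hoxc4 stayed between 0.96 and 1.27, and that of Hoxc5 between 1.78 and 2.28, in the fits that left out a library. With cells of 1000 or more genes and doublets kept Hoxc5 was at 1.31 (SE 0.390, edgeR adjusted p = 0.235) and was not called.

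The promoters of Hoxc4 and Hoxa5 are shown because these members rose in the same class and have an entry in the RefSeq promoter table (GRCm38.p6, 250 bases before to 50 bases after the start), which held 22 of the 38 members. The window of Hoxa5 is chr6:52204538-52204837 on the minus strand and that of Hoxc4 is chr15:103034145-103034444 on the plus strand. The Hoxc4 window lies inside the gene as placed by GENCODE vM21, downstream of its outermost annotated start. In capitals are the nuclear receptor half-site AGGTCA, on either strand, and the longest run of bases that both share.
Hoxa5: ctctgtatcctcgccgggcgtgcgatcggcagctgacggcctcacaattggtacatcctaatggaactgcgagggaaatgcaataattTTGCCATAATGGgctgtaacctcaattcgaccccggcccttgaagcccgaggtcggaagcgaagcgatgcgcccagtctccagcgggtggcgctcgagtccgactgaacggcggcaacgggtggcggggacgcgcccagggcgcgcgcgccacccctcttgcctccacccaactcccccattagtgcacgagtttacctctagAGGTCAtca
Hoxc4: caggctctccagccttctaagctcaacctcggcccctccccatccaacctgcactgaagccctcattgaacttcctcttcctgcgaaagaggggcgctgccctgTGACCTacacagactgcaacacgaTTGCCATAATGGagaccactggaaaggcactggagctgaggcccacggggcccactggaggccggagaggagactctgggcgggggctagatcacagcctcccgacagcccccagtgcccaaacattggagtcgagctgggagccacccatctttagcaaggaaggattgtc

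The shared run TTGCCATAATGG, of 12 bases, was picked as the longest in both promoters, so its match in these 2 was fixed in advance. It was found in no other of the 32851 promoters of the table. Whether other pairs of promoters share a run as long was not tested. AGGTCA was found in 16.3% of all promoters and in 7 of the 22 members' promoters. The Pbx-Hox motif TGATNNAT was found on either strand in 8.85% of all promoters and in 3 of the 22, but not in these 2. Hoxa5 had 29 CpG dinucleotides and 61.7% GC, and Hoxc4 had 9 and 60.3%, against medians of 7 and 52.7% over all promoters. A match describes letters in this window only.

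Outside cluster 3 no member was called, and the pairs with the smallest p lay in several classes and were mostly higher in cKO. Hoxb2 in otic vesicle-like cells had the smallest, at 31.6 and 47.0 CPM in Rep1 and 33.8 and 54.3 CPM in Rep2 without overlap, a log2 fold change of 0.62 (SE 0.153, edgeR adjusted p = 0.192). Hoxa2 in cluster 0 was at 0.59 (SE 0.151, edgeR adjusted p = 0.0878), with a log2 difference of 0.70 in Rep1 and 0.52 in Rep2. Hoxa4 in sensory neurons-like cells was at 5.98 and 11.7 CPM in Rep1 and 7.51 and 13.9 CPM in Rep2, a log2 fold change of 0.95 (SE 0.240, edgeR adjusted p = 0.281). Hoxb4 in cluster 16 (Etv2, Tal1) was at 7.70 and 22.3 CPM in Rep1 and 7.51 and 15.4 CPM in Rep2, also without overlap, a log2 fold change of 1.25 (SE 0.322, edgeR adjusted p = 0.614). Hoxb2 and Hoxb3 in surface ectoderm-like cells were at 0.28 (SE 0.0789) and 0.47 (SE 0.145), both with an edgeR adjusted p of 1.00. In the opposite direction, Hoxb4 in branchiomeric muscle-like (Tlx1) cells was at -1.54 (SE 0.420, edgeR adjusted p = 0.283), and all 5 members tested there had a log2 fold change below 0, with 4 lower in both replicates, as were 31.7% of the 13799 genes tested there. Hoxb4 was at 6.22 and 1.86 CPM in Rep1 and 0.314 and 0.166 CPM in Rep2, and cHet Rep1 stood apart in this class, with a summed Hox level of 42.3 CPM against 8.83 to 17.5 CPM in the other libraries.

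Whether the change with genotype differed between classes was tested directly, with all class-by-genotype terms in a single fit. Of the 18 members that passed the filter, 0 were called at an adjusted p under 0.05, against 0.851% of the 16567 genes tested. In this edgeR F test 3 had an unadjusted p under 0.05 (0.00588 for Hoxd3, 0.0330 for Hoxb3 and 0.0408 for Hoxb8). The share of all genes at that unadjusted threshold is not given. The rise of Hoxc4, Hoxc5 and Hoxa5 in cluster 3 was therefore not shown to differ from their change in other classes. Without the filter on low counts, 5 members were called in this test, as were 4.67% of the 26827 genes then tested.

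For several members the replicates differed more than the genotypes in the sensory neurons-like class. Hoxa4 and Hoxb1 were exceptions, with genotypes that did not overlap (log2 fold change of Hoxb1 -0.83, SE 0.302, edgeR adjusted p = 0.687). Hoxd4 was at 26.0 and 34.2 CPM in cHet and cKO of Rep1, and at 0.485 and 0 CPM in cHet and cKO of Rep2. Hoxd3 was at 27.7 and 37.5 CPM in Rep1 but 4.36 and 1.03 CPM in Rep2. Hoxb8 was at 8.34 and 19.9 CPM in Rep1 but 0.969 and 0.514 CPM in Rep2. For all 3 genes the replicates did not overlap, and Rep1 was the higher, as in 24.7% of the 12778 genes tested in this class. Hoxb2, Hoxb3, Hoxb4 and Hoxb5 went the other way in the same cells, with both Rep2 libraries above both Rep1 libraries, as in 54.6% of the genes. In all, 5 of the 16 members tested were higher in both Rep1 libraries and 6 in both Rep2 libraries, so separation by replicate was not particular to Hox genes.

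**Figure D5:**
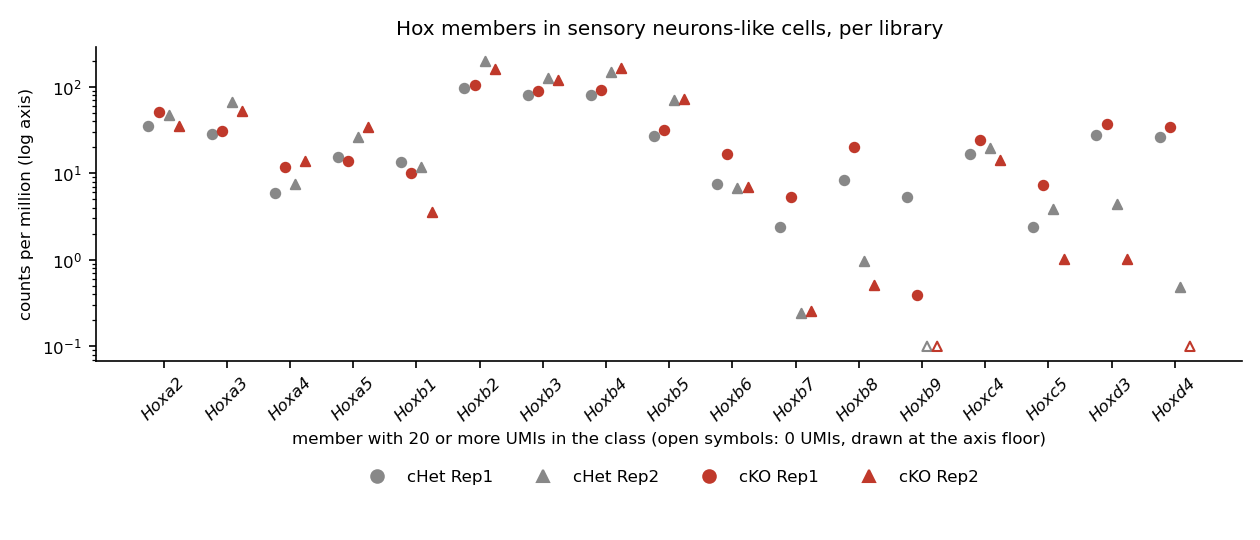
CPM (log axis) of members with 20 or more UMIs in sensory neurons-like cells, with grey for cHet, red for cKO, circles for Rep1, triangles for Rep2 and open symbols for 0 UMIs, drawn at the floor of the axis. Hoxd4 lies at 26.0 and 34.2 CPM in Rep1 and at or below 0.485 CPM in Rep2, while Hoxb4 is higher in Rep2.

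In Rep1, 66 of 277 cHet cells (23.8%, Wilson interval 19.2 to 29.2) and 95 of 296 cKO cells (32.1%, 27.0 to 37.6) of this class held a Hoxd4 UMI. In Rep2 it was 1 of 179 cHet cells (0.559%, 0.0987 to 3.10) and 0 of 201 cKO cells, for which the Wilson interval reaches 1.875% and the limit of 3 cells that a count of 0 allows is 1.49%. The median depth was 17942 and 22340 UMIs per cell in Rep1 and 22839 and 18473 in Rep2, and after thinning each cell to 5000 UMIs the shares were 12.3% and 13.9% in Rep1 and 0% in both Rep2 libraries. All markers of 2 lists went in a single direction with Hoxd4. Each of the 10 sensory neuron markers was found in a smaller share of the Hoxd4-positive than of the Hoxd4-negative cells of Rep1 (6.83% to 52.8% against 29.1% to 74.0%), from Elavl3, at 51.6% and 56.8%, to Neurod1, at 16.1% and 62.6%. Each of the 6 neural tube markers was found in a larger share of them (8.70% to 87.0% against 1.94% to 54.9%), with Sox3 at 56.5% and 19.2%. In the Hoxd4-negative cells of Rep2 the shares were 47.5% to 98.4% for the sensory neuron and 0.264% to 35.4% for the neural tube markers. Of the 7 neural crest markers, 5 had a larger and 2 a smaller share in the Hoxd4-positive than in the Hoxd4-negative cells of Rep1. All 7 had a larger share in the Hoxd4-negative cells of Rep1 than in those of Rep2. The Hoxd4-positive cells of Rep1 were led by Rarb, the retinoic acid receptor beta, which was found in 80.7% of Hoxd4-positive and 32.5% of Hoxd4-negative cells, and by Fgfbp3, Nlgn1, Rmst, Glra1 and Pax3. The part of kit, dissection, pool and neural tube markers in this difference was not tested.

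Posterior members were found in few cells. Over all libraries 214 UMIs of groups 9 to 13 fell in 51 cells, and 168 of them in 11 cells that held 4 or more each. Of the 11, 5 were sensory neurons-like cells of cHet Rep1 with 34 posterior UMIs, and 5 neural crest-like cells and 1 cell of cluster 3, all of cKO Rep1, held 134. Neither Rep2 library had such a cell. In neural crest-like cells of cKO Rep1 this put Hoxa9 at 23.7 CPM, Hoxd9 at 22.1 CPM and Hoxd8 at 14.0 CPM, with 0 UMIs of these genes in the class in the other 3 libraries. The 5 cells went against their class name: they held no UMI of the 7 neural crest markers, each of which was found in 8.06% to 54.8% of the other 62 neural crest-like cells of that library, and none of the 10 sensory neuron or 7 somitic mesoderm markers. Lhx9 and Lhx2, encoding LIM homeodomain factors, were found in all 5, at 381 and 168 CPM, and at 0 and 4.75 CPM in the other cells. Leaving out the 11 cells kept 3 calls in cluster 3, with Hoxc4 at 1.12 (SE 0.202).

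Genes that act with or on the Hox clusters were read from the same fits, by lists. The 19 calls in these lists rested on the replicate block, and 0 of them held without it. Without the block the log2 fold change was -0.89 (SE 0.234) for Crabp2 in cluster 0 and -0.88 (SE 0.520) for Crabp1 in cluster 1. For Meis1 in cluster 9 it was 0.43 (SE 0.208). Of 11 TALE homeodomain cofactors (Meis, Pbx, Pknox and Tgif genes), none was called over all cells or in cluster 3, and 3 of 216 pairs of a gene and a class were called, against 0.534% of all pairs, which is the background for each of these lists. Meis1 was higher in cKO in cluster 9 (log2 fold change 0.41, SE 0.0860, edgeR adjusted p = 0.000334) and cluster 2 (0.19, SE 0.0568, edgeR adjusted p = 0.0396), and Pknox2 lower in cluster 2 (-0.34, SE 0.0613, edgeR adjusted p = 1.15e-05). The median log2 fold change over the 216 pairs was 0.00658.

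Of 20 transcriptional and signalling regulators of Hox clusters, 14 of 234 pairs were called, 3 higher and 11 lower in cKO. The lower calls were led by the retinoic acid-binding proteins. Crabp2 in cluster 0 was at 113 and 58.4 CPM in cHet and cKO of Rep1 and at 108 and 61.0 CPM in Rep2, without overlap (log2 fold change -0.88, SE 0.0588, edgeR adjusted p = 7.97e-06). Crabp1 in cluster 1 was at 94.9 and 44.0 CPM in Rep1 and 49.1 and 35.6 CPM in Rep2 (-0.78, SE 0.0945, edgeR adjusted p = 1.25e-05). Cyp26a1 was higher in cluster 0 (0.34, SE 0.0566, edgeR adjusted p = 0.0116) and cluster 2 (0.21, SE 0.0559, edgeR adjusted p = 0.0122) and lower in somitic mesoderm-like cells (-0.90, SE 0.200, edgeR adjusted p = 0.0363).

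Of 25 Trithorax and Polycomb genes, 0 of 464 pairs were called by edgeR, with 20 at an unadjusted p under 0.05. Of 12 noncoding transcripts of the Hox clusters, 2 of 88 pairs were called. Halr1, transcribed next to HoxA, was lower in cKO in cluster 3, at 44.9 and 35.8 CPM in Rep1 and 36.6 and 27.6 CPM in Rep2 (-0.35, SE 0.0856, edgeR adjusted p = 0.00908), where the HoxA member Hoxa5 was higher. Hoxaas2, an antisense transcript across Hoxa3, was higher in cluster 2 (0.33, SE 0.0902, edgeR adjusted p = 0.0187). Whether the counting used strand is not given in the sources used here, and without strand reads of Hoxaas2 and Hoxa3 cannot be told apart.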

How the data were processed

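The authors deposited raw UMI counts per gene and barcode, made per the labels with Cell Ranger 8.0.1 against mm10; the file headers name 7.0.1 for the first pair of libraries, whose names carry no number and which are called Rep1 here, and 8.0.1 for the second pair. The members and lists were chosen with earlier results of these data known. Barcodes with at least 3000 genes, at most 10% mitochondrial and 5% haemoglobin UMIs were kept. Scrublet's own threshold called 0.0150% to 1.74% of cells as doublets, so the expected rate (0.8% per 1000 cells in Rep1, 0.4% in Rep2) set the cut, and 358 to 637 cells per library were removed. Cells were clustered with scanpy 1.11.5 (2000 variable genes without Hox genes, 30 components, components aligned between replicates by soft clustering, Leiden resolution 0.8), and a class was named from at least 3 markers, each in 10% of cells and 2-fold higher than elsewhere. Cluster 16 passed on all 10 endothelial markers, but stayed unnamed because another list and not this one was among its leading genes.

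UMIs were summed per library and class and tested with edgeR 4.0.16 in R 4.3.3 (quasi-likelihood, TMM, filterByExpr, replicate block, Benjamini-Hochberg adjustment over all genes of a class, two-sided). The replicate number marks a kit and deviations of same-numbered libraries from their group means correlated (r = 0.643 to 0.832 over classes), so the block was kept. With 2 pooled libraries per genotype and the block, p-values do not measure the full spread between pools. They rest on how the difference between genotypes varied between the 2 replicates, with variance estimates shared across genes. For Hoxa5 in cluster 3 the SE was 0.110 with the block and 0.355 without it. CPM are counts per 1000000 without TMM scaling. Limma 3.58.1 and DESeq2 1.42.0 were alternatives. The fits were tested on simulated counts. Named members were the 10 with most UMIs and any called. Some genes of the lists are not reported here.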

Additional observations from a re-analysis of the deposited data

How the results depend on the processing

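In all cells 0 members were called under each alternative tried except without the filter on low counts, where 1 was (Hoxa9, whose UMIs were nearly all in cKO Rep1). Within classes the 3 calls stood at 3 with upper-quartile scaling, total UMIs, limma-voom and without the cells of 4 or more posterior UMIs (limma-voom and the cells left out were chosen after seeing the data), and at 2 with cells of 1000 or more genes and doublets kept and 4 at Leiden resolution 0.4. The number of calls was 0 with DESeq2, 9 without the filter (7 higher and 2 lower, 0 of them among the 3), 0 with cells thinned to 5000 UMIs, 1 with cells of at least 4000 genes, 6 with Hox genes among the variable genes (the 3 among them), and 0 to 0 when any library was left out, in fits that also dropped the block. Without the replicate block, which the shared kit pairs, 0 were called, and the log2 fold changes in cluster 3 were 1.12 for Hoxc4, 2.03 for Hoxc5 and 0.53 for Hoxa5; the 19 calls in the lists of other genes were lost as well (an alternative chosen after seeing the data), and the test between classes was not run without it. DESeq2 gave Hoxc4, Hoxc5 and Hoxa5 there an unadjusted p of 0.00373, 0.0236 and 0.0268. Apart from the fit without the filter, the share of all pairs called is not given for these alternatives. The test between classes called 5 members without the filter (Hoxa2, Hoxb2, Hoxb3, Hoxb4, Hoxd3), and 0 with thinned cells or total UMIs. For the 10 most abundant members in all cells, the direction held in 129 of 150 alternatives and turned in 21, of which 12 left out a library. Within single replicates, which this tally leaves out, 7 of the 10 had opposite directions in Rep1 and Rep2. With classes weighted equally the log2 fold changes turned to 0.0713 (Hoxb2), 0.0975 (Hoxb3), 0.218 (Hoxb4), 0.124 (Hoxa3) and 0.207 (Hoxd3). Limma-voom gave 0.00328 for Hoxb3 and 0.0104 for Hoxb4, thinned cells 0.0268 and cells of 1000 or more genes with doublets kept 0.0137 for Hoxb4. Leaving out a library gave -0.385 to 0.278 for Hoxb2, -0.158 to 0.405 for Hoxa2, -0.151 to 0.0713 for Hoxb3, -0.308 to 0.227 for Hoxb4, -0.31 to 0.118 for Hoxa3, -0.285 to 0.171 for Hoxd3, -0.178 to 0.414 for Hoxb5 and -0.31 to 0.432 for Hoxa5. The cause of these changes was not tested, and a fit without a library assumes that the lone library varies like the others. The central shares of all cells, cluster 3, sensory neurons-like and surface ectoderm-like cells moved by less than the spread between libraries under the 5 alternatives tried. Depth limits members of few UMIs, such as Hoxc5 in cluster 3, with 4 to 31 UMIs per library.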
